A study of Homo sapiens with 32 samples.

Results

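The 33 genes described here are well-known transcriptional targets of the tumour suppressor p53, among them CDKN1A, MDM2, GDF15, BBC3, BAX, FAS and TIGAR. They were taken by name from a fixed list. That list was chosen with earlier results of these data known, so it is not independent of their values. All 33 were found among the 57820 genes listed for HCT116, and 29 of them among the 11887 genes listed for HEK293. GDF15, TNFRSF10C, SPATA18 and TRIM22 are not among the HEK293 genes and were not analysed there. EDA2R had 1 count in all 22 HCT116 libraries together and was left out of the HCT116 tests, so that 32 members were tested in HCT116 and 29 in HEK293.

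RNA sequencing counts were available for 26 libraries. HCT116 is a human colorectal cancer cell line with wild-type p53, and HEK293 is a human embryonic kidney cell line that carries adenoviral early genes whose products bind and inactivate p53. All libraries are from clonal lines, started from single cells after transfection of Cas9-GFP and sorting for high GFP. The deletion clones had received guide RNAs aimed at the enhancers the labels call E7, 18qNE and 18qE, and the control clones a guide plasmid without target sequence. In HCT116, 4 control clones and a lone E7 clone were each extracted on days A, B and C, which gives 12 control and 3 E7 libraries. The 18qNE group holds 3 clones with 1 library each, from days A, B and A. On day D, 2 of the same control clones and 2 18qE clones were extracted. In HEK293, 2 control clones and 2 E7 libraries were extracted on day E, and the E7 libraries share 1 clone label. The days are extraction days by the labels, with no treatment or interval given, and each group is limited to these few clones.

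p53 is a transcription factor that is kept low by the ubiquitin ligase MDM2 and is stabilised when DNA is damaged or cells are stressed. It then binds response elements near its target genes, whose products halt the cell cycle, repair DNA, adjust metabolism, trigger cell death or feed back on p53 itself. In intestinal epithelium this pathway is known for its part in the response to radiation, and its loss is a common step in colorectal cancer.

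A p53 response element is a pair of similar decamers. Among the 26 members with an entry in the RefSeq promoter table (GRCh38.p14, 250 bases before to 50 bases after the start of the gene), 4 had a match to the decamer consensus, 15.4% against 6.54% of the 27305 promoters in the table. The consensus reads the same on both strands, so each match counts for both, and a match is a description and not evidence of binding. A pair of decamers separated by at most 13 bases was in none of the 26 and in 8 of all promoters (0.0293%). The 150 bases that end at the start of each of these 4 genes are shown 5′ to 3′ with the decamer in capitals, because 2 of them, FDXR and AEN, carry the identical decamer and differed in the direction of their day-to-day change. FDXR lies at chr17:74872995-74873144 (minus strand), PLK2 at chr5:58460087-58460236 (minus strand), AEN at chr15:88621190-88621339 (plus strand) and RPS27L at chr15:63157478-63157627 (minus strand).
FDXR: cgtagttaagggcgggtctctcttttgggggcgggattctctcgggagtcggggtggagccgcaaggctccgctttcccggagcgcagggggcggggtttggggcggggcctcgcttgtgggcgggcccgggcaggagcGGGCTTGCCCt
PLK2: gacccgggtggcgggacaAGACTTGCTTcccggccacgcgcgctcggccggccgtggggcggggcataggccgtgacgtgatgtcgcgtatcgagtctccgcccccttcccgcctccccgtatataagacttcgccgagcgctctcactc
AEN: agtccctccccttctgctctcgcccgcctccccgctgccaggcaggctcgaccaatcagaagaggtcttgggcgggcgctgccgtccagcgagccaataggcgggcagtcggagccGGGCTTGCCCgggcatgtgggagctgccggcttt
RPS27L: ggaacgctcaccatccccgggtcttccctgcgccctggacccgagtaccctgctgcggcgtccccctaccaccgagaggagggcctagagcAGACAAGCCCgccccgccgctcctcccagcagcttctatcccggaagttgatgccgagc

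Levels are given as CPM, the count of a gene as a share of all gene counts of its library, on the usual scale of that unit. Depth ranged from 9871667 to 14862268 gene counts for the 18 libraries of the first 3 days, from 22972412 to 24887785 for the 4 of day D, and from 26491576 to 34790193 for the 4 of HEK293. Of 10 epithelial markers listed, 8 had enough counts to be tested in HCT116, and VIL1 and LGALS4 did not. In the HCT116 control libraries EPCAM was at 280 to 388 CPM and KRT8 at 1837 to 3730 CPM. The leukocyte gene PTPRC was at 0 in all 12 of them and the endothelial gene CDH5 reached 0.0726 CPM. Between the control libraries of the lines, 4 of 5 tested epithelial markers were lower in HEK293. The other, CDX2, was not called (-0.49, edgeR adjusted p = 0.09456). PAX2, listed as a marker of HEK293, was tested in HCT116 but is not among the HEK293 genes. VIM, which marks HEK293 here, was at 709 and 815 CPM in the HEK293 control libraries and at most at 1.61 CPM in the HCT116 ones, whereas NEFM, a neurofilament gene also used as a marker of HEK293, was near 0 in the HEK293 control libraries (0.632 and 0.680 CPM). In bulk RNA, fewer cells that express a gene and less RNA per cell cannot be told apart. A gene "passed" when its edgeR adjusted p over all genes tested was below 0.05, and only such a gene is said to have risen or fallen.

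**Figure D1:**
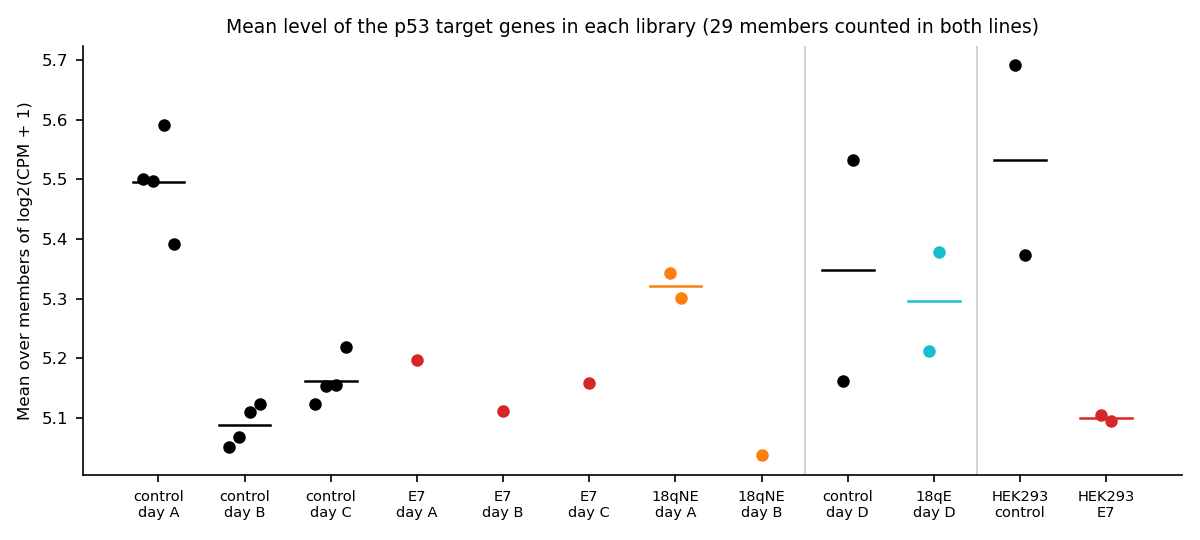
Each point is 1 library, and its height is the mean of log2(CPM + 1) over the 29 members counted in both cell lines; horizontal lines are group means, and vertical lines separate the extraction days A to C, day D and HEK293 (day E). The 4 control libraries of day A lie at 5.39 to 5.59, above the 8 control libraries of days B and C at 5.05 to 5.22.

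Within HCT116, most of the p53 targets differed between extraction days of the same control clones. Of the 32 tested members, 22 fell and 2 rose from day A to day B, against 19.4% and 19.1% of the 14988 genes tested (38.5% in either direction). From day A to day C, 16 fell and 2 rose, against 16.6% and 15.6% of all genes (32.2% in either direction). The median log2 change of the members was -0.37 on day B and -0.35 on day C, and that of all genes -0.01 on both. The mean of log2(CPM + 1) over 29 members was 5.50 on day A (SD 0.0812, n = 4 clones), 5.09 on day B (SD 0.0342) and 5.16 on day C (SD 0.0404). The day A libraries were shared by both comparisons, and the clone was a term of the fit. Each clone had 1 library a day, so the p-values measure how the day change varied between clones. They do not measure how extractions vary. Alignments counted as not unique made up 13.3% to 13.8% of all entries of the control files on day A, 12.7% to 13.04% on day B and 12.3% to 12.9% on day C, and their part was not tested.

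The secreted stress cytokine GDF15 and the death genes TP53INP1 and BBC3 showed the largest decreases. TP53INP1, which promotes p53-dependent death and autophagy, was at 36.9, 49.8, 57.4 and 41.4 CPM in control clones 1 to 4 on day A. It was at 11.6, 13.8, 8.75 and 15.03 CPM on day B and at 18.3, 14.4, 15.4 and 17.02 CPM on day C. Every day A library lay above every library of days B and C, and TP53INP1 fell by 1.86 on the log2 scale to day B (SE 0.15, adjusted p = 5.788e-06) and by 1.47 to day C. GDF15 was at 80.1, 78.2, 62.4 and 71.5 CPM on day A, and over days B and C it ran from 19.4 to 40.1 CPM. It fell by 1.59 to day B (SE 0.11, adjusted p = 3.143e-06) and by 1.17 to day C. BBC3, which encodes the BH3-only protein PUMA, was at 36.1, 34.2, 36.9 and 24.4 CPM on day A and at 8.40 to 15.7 CPM over days B and C, and fell by 1.51 and 1.34. Clone 4 had the smallest day A to day B ratio of BBC3, 1.68-fold, and clone 2 the largest, 4.07-fold.

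Among the genes of cell cycle arrest, CDKN1A encodes p21, the inhibitor of cyclin-dependent kinases. It was at 206, 209, 194 and 121 CPM in clones 1 to 4 on day A, at 85.6, 90.9, 94.3 and 89.4 CPM on day B and at 107, 109, 107 and 106 CPM on day C. CDKN1A fell by 0.95 to day B (SE 0.11, adjusted p = 5.585e-05) and by 0.71 to day C, and clone 4 stood apart on day A while the 4 clones were close to each other on day C. BTG2, an antiproliferative cofactor of mRNA deadenylation, fell by 1.11 and 0.68. GADD45A, a stress sensor that binds PCNA, fell by 0.43 and 0.39, and CCNG1, a cyclin that takes part in p53 feedback, by 0.39 and 0.48. The polo-like kinase PLK2 fell by 0.22 to day B and by 0.61 to day C, and its relative PLK3 did not pass (-0.15 and -0.10). PLK2 did not pass on day B by DESeq2 or without the filter on low counts.

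Death receptors and other death genes differed among themselves. TNFRSF10C, a decoy receptor for TRAIL, fell by 1.03 and 0.72, and TNFRSF10B, the TRAIL receptor DR5, fell by 0.29 to day B but did not pass on day C (-0.18). FAS, the receptor of FAS ligand, and BAX, the pore-forming effector of apoptosis, had log2 changes of 0.04 and 0.01 on day B and of 0.02 and -0.02 on day C and did not pass. The quinone oxidoreductase gene TP53I3, the RNA-binding protein gene ZMAT3 and SUSD6 fell to day B by 0.53, 0.36 and 0.38 and did not pass on day C, where TP53I3 was at -0.37 and ZMAT3 at -0.17. RPS27L, a ribosomal protein paralogue, fell by 0.36 and 0.47. AEN, an exonuclease that degrades DNA in apoptosis, moved the other way: it was at 79.2, 69.3, 72.2 and 80.5 CPM on day A and at 89.0 to 110 CPM over days B and C. AEN rose by 0.47 (SE 0.07, adjusted p = 0.0003136) and 0.38 and was the 1 tested member whose day A libraries all lay below those of days B and C.

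Of the genes of repair, metabolism and mitochondria, SESN1, a sensor that restrains mTORC1, fell by 0.68 and 0.56. FDXR, a mitochondrial electron transfer enzyme, was at 100, 76.6, 101 and 75.0 CPM on day A and at 47.0 to 73.9 CPM afterwards, with overlap of no day A library and any later one, and fell by 0.47 and 0.76. SPATA18, which takes part in mitochondrial quality control, fell by 1.14 and 0.98 from 2.32 to 2.98 CPM on day A. RRM2B, the p53-inducible ribonucleotide reductase subunit, fell by 0.39 and 0.34, and the nucleotide excision repair gene DDB2 by 0.40 and 0.47. XPC, of the same repair pathway, fell by 0.19 to day B and did not pass on day C (-0.17) or, on day B, by DESeq2 or without the filter. The translesion polymerase POLH did not pass (-0.15 and 0.15). TIGAR, a phosphatase that lowers glycolytic flux, rose by 0.26 and 0.28, and it did not pass by DESeq2 on either day or, on day B, without the filter. TP53I11 fell by 0.44 and 0.41.

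The feedback genes moved little. MDM2 was at 132 to 168 CPM on day A, 118 to 146 CPM on day B and 130 to 142 CPM on day C and did not pass (-0.13 and -0.12). PPM1D, the phosphatase WIP1 that reverses p53 activation, fell by 0.22 to day B, where it did not pass without the filter on low counts, and was at 0.07 on day C. In all, 15 tested members had every day A library above all 8 later ones, against 8.43% of genes tested, and 1 had them all below, against 7.05%. The 8 members that did not pass on day B were PHLDA3, PLK3, POLH, MDM2, BAX, FAS, TRIM22 and TRIAP1, with log2 changes from -0.26 to 0.27. Leaving out any 1 control clone left 16 to 24 members called on day B and 13 to 19 on day C. Of all genes, 18.3% to 42.9% and 12.9% to 33.6% were then called.

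**Figure D2:**
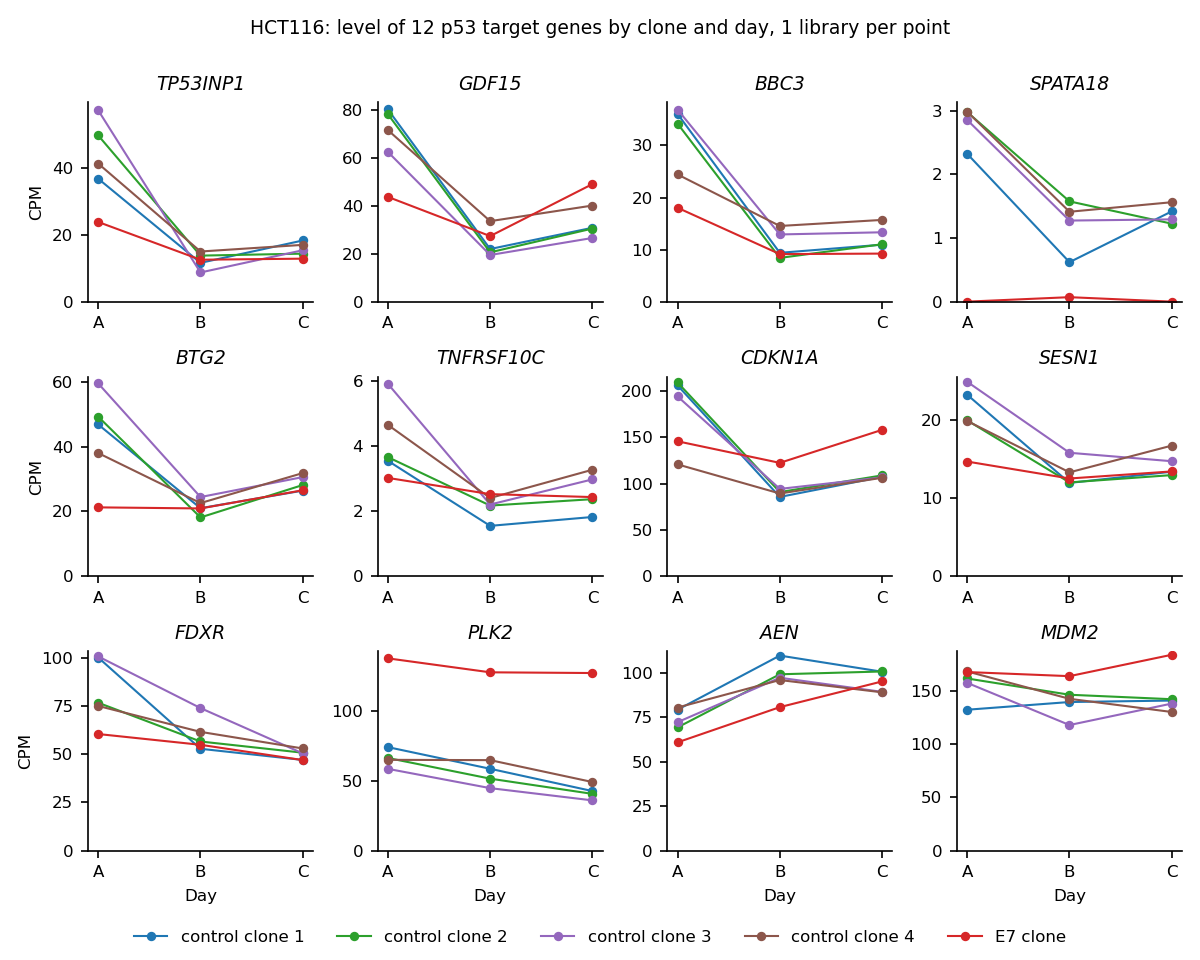
CPM (linear axes from 0) of 12 members by extraction day, with 1 line per HCT116 clone and 1 library per point. In the 4 control clones TP53INP1, GDF15 and BBC3 are highest on day A and AEN is lowest on day A, while the E7 clone (red) stands apart from the control clones in PLK2 on every day and is at or near 0 in SPATA18.

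Genes around the pathway differed between days as well, as did 38.5% of all genes on day B and 32.2% on day C. Of all genes, 19.1% rose and 19.4% fell on day B, and 15.6% rose and 16.6% fell on day C. Of 24 tested regulators of p53, 4 rose and 1 fell on day B, a smaller share than that of all genes. On day B the shares of further targets and of epithelial markers called in either direction were near that of all genes. Most of the further targets called fell, whereas all genes rose and fell in nearly equal shares. The kinases CHEK1 and ATR, which act in the replication stress checkpoint, rose by 0.24 and 0.23, the deubiquitinase USP7 by 0.29 and the ubiquitin ligase RCHY1 by 0.44, and PPP1R13L, the inhibitor iASPP, fell by 0.52. Of 46 further p53 targets, 18 fell and 2 rose on day B, with a median of -0.18; the store-operated channel gene ORAI3 fell by 1.34, the transcription factor PRDM1 by 1.17, CYFIP2 by 0.65 and APAF1, the scaffold of the apoptosome, by 0.56. On day C, 15 fell and 2 rose. Of 20 cell cycle genes that the DREAM complex represses when p21 is high, 16 rose and none fell on day B, with a median of 0.49, and 13 rose and none fell on day C. PLK1 rose by 0.91, AURKA by 0.78, CCNB1 by 0.76 and CCNA2 by 0.72 on day B, all of them genes of mitotic entry. Of 13 tested genes on a list of ATF4 and stress targets, which includes the stress factor ATF4 itself, 3 rose and 4 fell on day B. STC2 rose by 0.64 and SLC3A2 by 0.54, and DDIT4 fell by 0.77 and PHGDH by 0.55. Of 8 tested epithelial markers KRT8 rose by 0.43 on day B and the transcription factor ELF3 and CDH1 fell by 0.95 and 0.48. Their part in the members' changes was not tested.

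Days B and C were close to each other. None of the 32 members passed by edgeR in the comparison of day C with day B, where 0.0334% of genes were called, and 8 members had an unadjusted p below 0.05. DESeq2 called PLK2 lower, against 0.26% of genes lower. The median log2 change was 0.06, with PLK2 at -0.39 and BTG2 at 0.44 as the extremes.

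The control clones themselves differed in few members. In a joint test of clone with the day as a term, 1 of 32 members passed, GADD45A (adjusted p = 0.02232), against 7.8% of genes. Control clone 3 had 65.1, 46.0 and 43.3 CPM of GADD45A on days A, B and C, on each day the highest of the 4 clones, and was higher than the mean of the other 3 by 0.37 (SE 0.07, adjusted p = 0.00536). PLK2 was lower in clone 3 by a log2 difference of -0.27 (SE 0.08, adjusted p = 0.04532), with 58.5, 44.7 and 36.0 CPM, on each day the lowest of the control clones. These 2 members stand against 7.52% of genes called in clone 3, 4.35% higher and 3.17% lower. No member passed by edgeR or DESeq2 in clone 1, 2 or 4 against the other 3, where 0.941%, 1.23% and 5.22% of genes were called and 1, 3 and 6 members had an unadjusted p below 0.05. Libraries are the replicates here, so the p-values measure the spread between days. Without day B or day C neither GADD45A nor PLK2 passed in clone 3 (GADD45A at 0.32 and 0.44, PLK2 at -0.25 and -0.26), and without day A 7 members passed, against 12.4% of genes.

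On day D, control clones 1 and 2 were compared with the same clones on days A to C. Of 32 members, 3 rose and none fell, against 3.12% and 3% of genes (6.12% in either direction). GDF15 was at 63.4 and 83.3 CPM and rose by 1.05 (SE 0.11, adjusted p = 0.0003482). BBC3, at 18.6 and 24.9 CPM, rose by 0.59, and PLK2, at 70.3 and 86.8 CPM, rose by 0.60. These rises are against the mean of days A, B and C. On day A alone, clones 1 and 2 had 36.1 and 34.2 CPM of BBC3, above both values of day D. GDF15 was then at 80.1 and 78.2 CPM and PLK2 at 74.1 and 66.3 CPM. Both genes were thus higher on day A than on day D in clone 1 and lower in clone 2. The 2 clones differed from each other on day D: CDKN1A was at 114 CPM in clone 1 and 231 CPM in clone 2, and the mean of log2(CPM + 1) over 29 members was 5.16 and 5.53. Without the day D library of clone 2, BBC3 (0.32) and PLK2 (0.35) did not pass and GDF15 did, and without that of clone 1 12 members rose, against 2.15% of genes. Of the 13 tested genes of the ATF4 list, 7 rose on day D, CHAC1 by 1.67, DDIT4 by 0.70, ATF3 by 0.67 and STC2 by 0.64. GDF15 is also known to respond to ATF4, and the part of that pathway was not tested.

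The E7 clone of HCT116 was compared with the 4 control clones after its 3 libraries, and those of each control clone, had been summed, so that the days were balanced. Of the 32 members 6 fell and 1 rose, against 6.32% and 7.58% of the 17664 genes tested (13.9% in either direction). The median log2 change was -0.14, and -0.01 over all genes. The control clones are the same libraries as in the comparison of days. DESeq2 called 8 members lower and 3 higher, the higher ones being PLK2, MDM2 and TIGAR. DESeq2 called 8.57% of all genes lower and 8.89% higher. With the 15 libraries unsummed and the day as a block, 6 members fell and 4 rose (MDM2, TNFRSF10B, PLK2 and TIGAR), against 17.6% and 17.2% of genes, and TP53INP1 did not pass. With 1 E7 clone, the p-values rest on the spread of the control clones.

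PLK2 (ENSG00000145632.10), a kinase of centriole duplication and stress response, was the member that rose. It was at 138, 128 and 127 CPM in the E7 clone on days A, B and C, and ran from 36.0 through a median of 55.0 to 74.1 CPM in the 12 control libraries. The groups did not overlap, and PLK2 rose by 1.27 (SE 0.12, adjusted p = 0.0007778), by more than its spread in the control clones on every day. Its neighbour in function, PLK3, had a log2 change of -0.07.

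SPATA18 (ENSG00000163071.6) had 270 counts in the 12 control libraries and 1 count in the 3 E7 libraries. The control libraries ran from 0.620 through a median of 1.49 to 2.98 CPM, and the E7 libraries were at 0, 0.0702 and 0 CPM. The pooled CPM was 73.8-fold lower in E7 (95% exact interval 13.1 to 2926, counting error only), and SPATA18 passed (adjusted p = 0.0007394). The 18qNE clones had 0.439, 0.710 and 1.73 CPM of it, so no library of another group was as low as those of E7.

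RRM2B (ENSG00000048392.7) was at 54.7, 46.0 and 42.8 CPM in E7 and at 71.9 to 126 CPM, with a median of 90.5 CPM, in the control libraries, without overlap. It fell by 0.97 (SE 0.09, adjusted p = 0.0008463). TRIAP1, an inhibitor of apoptosome assembly and a lipid transfer protein of mitochondria, was at 32.1, 37.9 and 40.2 CPM against 46.3 to 76.2 CPM and fell by 0.64 (SE 0.12, adjusted p = 0.01326). BAX was at 44.3, 53.5 and 50.1 CPM, below the lowest control library at 55.6 CPM, and did not pass (-0.35, adjusted p = 0.05533). In all, 4 tested members had every E7 library below every control library, against 6.6% of genes, and PLK2 alone had them above, against 7.5%.

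BBC3, TP53INP1 and PPM1D fell by 0.64 (adjusted p = 0.03617), 0.60 (0.04699) and 0.39 (0.03259), and over all days together their libraries overlapped those of the controls. BBC3 was at 18.0, 9.13 and 9.23 CPM in E7 on days A, B and C, against 24.4 to 36.9, 8.40 to 14.5 and 10.9 to 15.7 CPM in the control clones. TP53INP1 was at 23.9, 12.6 and 12.9 CPM against 36.9 to 57.4, 8.75 to 15.03 and 14.4 to 18.3 CPM. Both lay below all 4 control clones on days A and C and among them on day B. PPM1D was at 37.5, 38.0 and 45.2 CPM against 50.4 to 61.4, 44.6 to 48.2 and 54.6 to 60.4 CPM, below the control clones of the same day on each day. Without day A in both groups, an alternative chosen after seeing the data, TP53INP1 was at -0.13 (adjusted p = 0.676), BBC3 at -0.37 (0.4132) and PPM1D at -0.29 (0.07954), and none of them passed. The median over the 32 members was then 0.02. Each of the 3 also failed to pass without control clone 1 or control clone 2, at log2 changes near those of the full test.

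Over days B and C alone 3 members fell and 3 rose in E7, against 4.97% and 6.48% of genes. RRM2B, SPATA18 and TRIAP1 fell and PLK2 rose, as over all days, and CDKN1A rose by 0.51 (SE 0.08, adjusted p = 0.007714) and MDM2 by 0.36 (SE 0.09, adjusted p = 0.03615). CDKN1A (ENSG00000124762.9) was at 122 and 158 CPM in E7 on these days, above all 8 control libraries of days B and C at 85.6 to 109 CPM. On day A it was at 146 CPM, above clone 4 at 121 CPM and below clones 1 to 3 at 194 to 209 CPM, and over all days it did not pass (0.14). MDM2 was at 164 and 184 CPM on days B and C against 118 to 146 CPM in the control clones, and at 168 CPM on day A against 132 to 168 CPM.

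The day response itself was compared between the E7 clone and the control clones by a joint test of both day terms. No member passed by edgeR, where 0% of 15767 genes were called, and 8 members had an unadjusted p below 0.05. By DESeq2, GDF15 passed, against 0.0317% of genes. From day A, the change of GDF15 in E7 exceeded that in the control clones by 0.96 on day B and 1.40 on day C, with E7 at 43.7, 27.3 and 49.0 CPM. The excess was 1.14 and 1.06 for BTG2 and 0.75 and 0.88 for CDKN1A. The day A mean of log2(CPM + 1) over 29 members was 5.20 in E7, below the 4 control clones at 5.39 to 5.59, and on days B and C E7 was at 5.11 and 5.16, within the control range of 5.05 to 5.22.

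Some called members lie in stretches of chromosomes where many genes moved the same way in this clone. The stretches were known from earlier results of these data, so their medians are not a separate test. RRM2B and TP53INP1 lie on chromosome 8 between CPNE3 and C8orf33, where 243 tested genes had a median of -0.58, 124 fell and 3 rose, and 39 had a lower log2 change than RRM2B. TIGAR, at 26.6, 30.6 and 32.4 CPM in E7 against 18.6 to 26.9 CPM in the control libraries, lies on chromosome 12 between KDM5A and AMN1, where 212 genes had a median of 0.58, and its log2 change of 0.35 did not pass (adjusted p = 0.07526). The 25 members that did not pass ranged from -0.56 (BTG2) to 0.35 (TIGAR), with PHLDA3 at -0.36 and BAX at -0.35 next; GDF15 was at -0.14 and FAS at -0.19.

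The neighbouring lists moved in both directions in E7, where 7.58% of all genes rose and 6.32% fell. Of 46 further p53 targets 6 rose and 4 fell, with a median of 0.03. The cytokine LIF rose by 3.13 (SE 0.19) and the repressor E2F7 by 0.79 (SE 0.09), and PRDM1 fell by 2.69 (SE 0.48). Of 24 regulators MDM4, the p53-binding partner of MDM2, rose by 0.31 and the p53 relative TP73 by 0.49, and the checkpoint kinase CHEK2 fell by 0.41. Of 20 DREAM targets 3 rose, CDC25C by 0.70, CCNB2 by 0.45 and CCNB1 by 0.26, and none fell. Of 13 tested genes of the ATF4 list SLC7A11 rose by 1.46, and ATF3 and DDIT4 fell by 1.26 each. Among the markers, VIM rose from a median of 0.597 to 21.8 CPM and GATA3 fell by 2.59. Of 8 epithelial markers CDH1 fell from a median of 80.6 to 46.7 CPM and KRT19 rose by 0.36, and LYZ, the 1 leukocyte marker tested, rose by 1.93 while PTPRC reached at most 0.0673 CPM. The part of these markers in the members' changes was not tested.

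In the clones without 18qNE or 18qE no member passed. For 18qNE, 0 of 32 members were called by edgeR or DESeq2, where edgeR called 0% of 15524 genes, and 1 member had an unadjusted p below 0.05, SPATA18 with a log2 change of -1.03 (SE 0.39). The next were GDF15 (-0.35), TP53INP1 (-0.32) and FDXR (-0.28), and the median was -0.06 against 0.01 over all genes. With the libraries of days A and B and the day as a term the median was -0.13, again with no member called, and without 18qNE clone 2 it was 0.01. The 2 libraries of day A lay at a mean log2(CPM + 1) of 5.34 and 5.30 and that of day B at 5.04, and GDF15 was at 65.5 and 34.2 CPM on day A and 15.1 CPM on day B. All 32 tested members overlapped in level with the control libraries of days A and B.

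For 18qE, 0 of 32 members were called by edgeR or DESeq2, where edgeR called 0% of 15261 genes, and 1 had an unadjusted p below 0.05. That member was GDF15, at 132 and 108 CPM in the 18qE clones and 63.4 and 83.3 CPM in the control clones of day D, a log2 change of 0.75 (SE 0.20, adjusted p = 0.9999). TRIM22, an interferon-inducible ubiquitin ligase, was at 0.43, SESN1 at -0.35 and TP53I3 at 0.35. GDF15 passed when 18qE clone 2 was left out (0.93, adjusted p = 0.01139 by edgeR). The median over the members was -0.0024, against 0.0032 over all genes, and it was -0.25 without control clone 1 and 0.22 without control clone 2. The 13 tested genes of the ATF4 list all had a positive log2 change, with a median of 0.33. None passed, and 2 had an unadjusted p below 0.05 (DDIT4 at 1.47 and STC2 at 0.76). The part of this list in the value of GDF15 was not tested. Alignments counted as not unique made up 18.5% and 24.8% of all entries of the 18qE files and 18.8% and 15.6% of the control files of day D, and their part was not tested. The control libraries alone spanned from 5.16 to 5.53 in the mean of the members, wider than the 18qE libraries at 5.21 and 5.38.

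In HEK293, p53 targets were lower in the E7 libraries than in the control libraries for most members, but no member passed by edgeR. Of 29 tested members 23 had a negative log2 change and 6 a positive one, with a median of -0.38 against -0.01 over all genes. edgeR called 0.0254% of 11806 genes in this comparison, and 12 members had an unadjusted p below 0.05. DESeq2 called 7 members, all lower, against 2.56% of genes lower: EDA2R, FDXR, BTG2, RPS27L, DDB2, PHLDA3 and BAX. A fit with the library number as a block called the same 7 and BBC3, against 3.38% of genes lower. Both E7 libraries lay below both control libraries for 18 members, against 20.9% of genes, and for none above. The E7 libraries may be 1 clone. With 2 libraries a group the self-test recovered 29 of 100 genes changed by 1 on the log2 scale and 97 of 100 changed by 2. It also called 8 unchanged genes.

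The largest difference was in EDA2R (ENSG00000131080.10), a receptor of the TNF receptor family. It was at 13.6 and 9.78 CPM in the control libraries and at 0.575 and 0.477 CPM in the E7 libraries, 645 counts against 35. The pooled CPM was 22.2-fold lower in E7 (95% exact interval 15.8 to 32.2, counting error only), with a log2 change of -4.52 (SE 0.33, adjusted p = 0.05284). It passed by DESeq2, with the E7 libraries summed as 1 clone, and without any 1 of the 4 libraries.

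Among the death genes, BBC3 was at 19.3 and 37.8 CPM in the control libraries and 11.9 and 14.3 CPM in E7, a log2 change of -1.21 (SE 0.39). BAX was at 91.6 and 113 CPM against 57.4 and 59.1 CPM (-0.89), and RPS27L at 78.9 and 107 CPM against 49.9 and 44.6 CPM (-1.05). PHLDA3, which inhibits the kinase AKT by binding membrane lipids, was at 46.5 and 59.6 CPM against 26.8 and 30.8 CPM (-0.96). In these 4 genes the groups did not overlap, and in BBC3 the control clones lay farther apart than the lower of them from E7.

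The genes of arrest, repair and metabolism were alike in direction with exceptions. BTG2 was at 97.7 and 60.7 CPM in the control libraries and 33.7 and 39.4 CPM in E7 (-1.17, SE 0.26). FDXR was at 43.7 and 42.1 CPM against 20.2 and 19.8 CPM, with nearly equal libraries within each group (-1.17, SE 0.18, adjusted p = 0.1925). DDB2 was at 34.9 and 32.1 CPM against 17.4 and 17.8 CPM (-0.996, SE 0.18). SESN1 was at 84.3 and 60.5 CPM against 42.7 and 43.7 CPM (-0.81). CDKN1A did not separate the groups: it was at 103 and 72.3 CPM in the control libraries and 77.005 and 90.9 CPM in E7 (-0.13). MDM2, at 263 and 126 CPM against 197 and 185 CPM, was at -0.08, and the 6 members above 0 were TP53INP1, PLK2, SUSD6, TP53I11, RRM2B and POLH, from 0.01 to 0.25.

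The result turned on which control library was used. The mean of log2(CPM + 1) over the members was 5.69 in control 1, 5.37 in control 2 and 5.10 in both E7 libraries. Without control 1, 14 members fell and 7 rose, against 26.3% and 26.2% of genes. Without control 2, 17 fell and none rose, against 9.24% and 6.94%, with the spread then taken from the E7 libraries and the lone control assumed to vary like them. MDM2, PPM1D and POLH were among those that rose without control 1 and those that fell without control 2. None of 34 further targets, 24 regulators, 20 DREAM targets and 14 genes of the ATF4 list passed, with medians of -0.11, 0.11, -0.07 and -0.43. Of 5 tested markers of HEK293, NEFM rose by 5.54, from 0.632 and 0.680 to 35.8 and 28.7 CPM. None of 5 epithelial markers passed, though EPCAM was at 133 and 76.5 CPM in the control libraries and at 216 and 228 CPM in E7; the part of either in the members' levels was not tested.

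**Figure D3:**
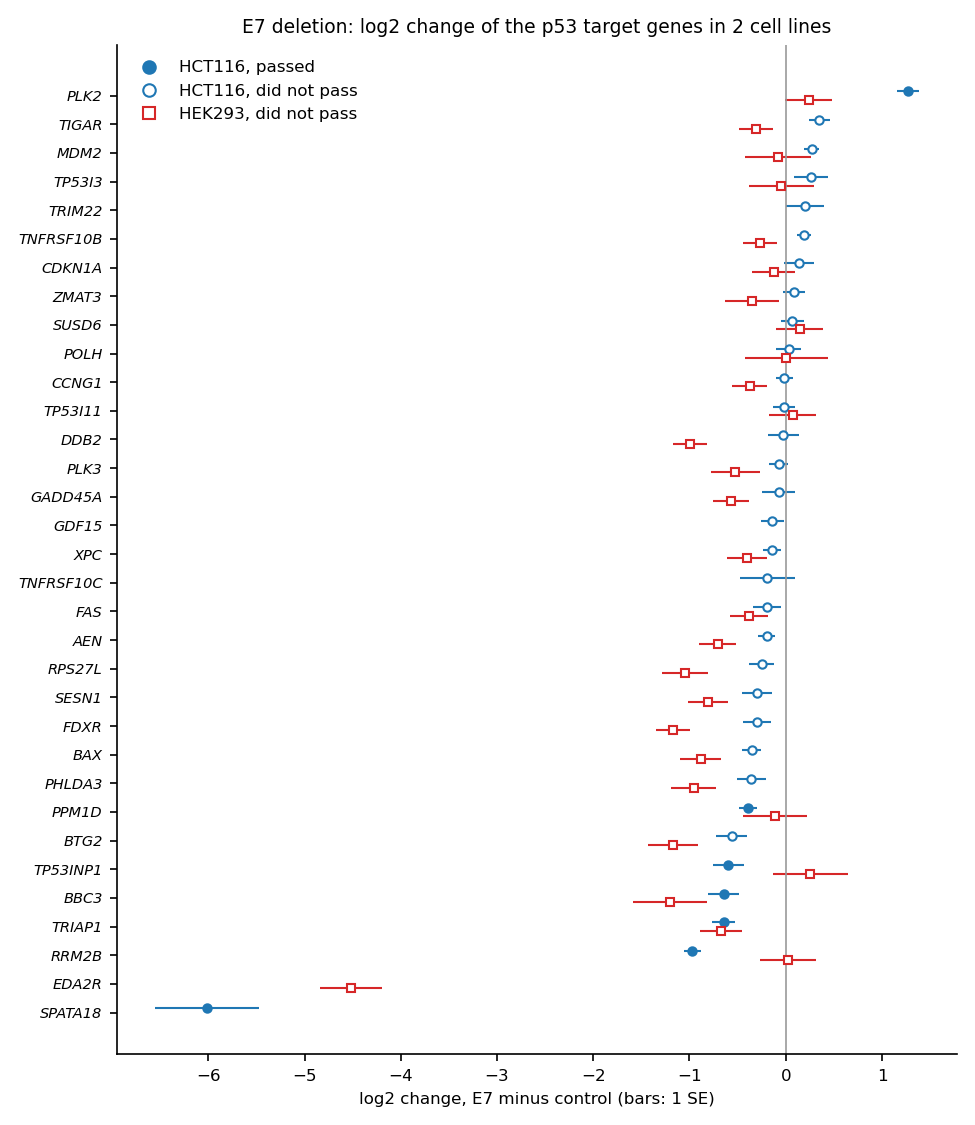
The log2 change from control to E7 with its standard error for each tested member in HCT116 (circles, filled where the member passed) and in HEK293 (squares, none passed), ordered by the change in HCT116, with EDA2R placed by its HEK293 value. PLK2 at 1.27, RRM2B at -0.97 and SPATA18 at -6.01 stand out in HCT116, and EDA2R at -4.52 in HEK293, where most squares lie to the left of 0.

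Whether the E7 change differed between the lines was tested by an interaction term over the genes in both kinds of file. No member passed by edgeR among 29, against 3.38% of genes, and 9 had an unadjusted p below 0.05. By DESeq2 6 passed, against 9.92% of genes, RRM2B with a higher change in HEK293 and PLK2, FDXR, DDB2, TIGAR and TNFRSF10B with a lower one. The difference, HEK293 minus HCT116, was -1.01 for PLK2 (SE 0.27, adjusted p = 0.08774), 1.01 for RRM2B (SE 0.33, adjusted p = 0.1513), -0.95 for DDB2 (adjusted p = 0.06727) and -0.85 for FDXR (adjusted p = 0.06681). No difference was shown for EDA2R, which had no counts in the HCT116 libraries of this fit.

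The levels of the members in the control libraries were compared between the lines. Of 29 tested, 9 were higher and 7 lower in HEK293, against 32.9% and 27.4% of 11849 genes (60.3% in all), so that the members' share was no larger than that of all genes. The median difference was 0.03, and 0.05 over all genes. The members' median was -0.24 without HEK293 control 1 and 0.10 without HEK293 control 2. CPM here is over the genes listed for both lines, which make up 95.6% to 97.0% of the counts in HCT116. HEK293 was extracted on day E alone, so that cell line and day cannot be told apart.

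SESN1 was at 12.3 to 25.9 CPM in the 12 HCT116 control libraries, with a median of 15.7 CPM, and at 84.3 and 60.5 CPM in HEK293, a log2 difference of 1.87 (SE 0.14, adjusted p = 9.53e-06). CCNG1 was at 132 to 207 CPM and at 406 and 353 CPM, higher by 1.05. AEN (0.79), RPS27L (0.71), PHLDA3 (0.64), BAX (0.46) and TIGAR (0.35) were higher without overlap, and BTG2 by 0.99 with 1 HEK293 library inside the HCT116 range. EDA2R had no counts in the HCT116 control libraries and a pooled 11.7 CPM in HEK293, at least 561-fold higher when the floor is 3 counts over the HCT116 group.

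The members lower in HEK293 included both polo-like kinases. PLK2 was at 37.2 to 76.8 CPM in HCT116, with a median of 56.8 CPM, and at 21.3 and 14.0 CPM in HEK293, a difference of -1.88 (SE 0.17, adjusted p = 3.443e-05). PLK3 was at 23.6 to 31.1 CPM against 7.66 and 8.87 CPM (-1.84), and TP53I11 was lower by a difference of -1.58. RRM2B (-1.15), FDXR (-0.89), CDKN1A (-0.79) and DDB2 (-0.41) were lower as well. Both HEK293 libraries, at 34.9 and 32.1 CPM of DDB2, lay within its HCT116 range of 29.5 to 55.7 CPM, also within that of days B and C. DDB2 did not pass without HCT116 control clone 1 or HEK293 control 2, and TIGAR did not without HCT116 control clone 2. CDKN1A was at 88.4 to 218 CPM in HCT116 and at 103 and 72.3 CPM in HEK293, so that 1 HEK293 library lay within the HCT116 range of days B and C. MDM2 was at 121 to 174 CPM in HCT116 against 263 and 126 CPM and did not pass (0.20, adjusted p = 0.4549). It passed as lower without HEK293 control 1 (-0.37) and as higher without HEK293 control 2 (0.61). Of 34 tested further targets PMAIP1, which encodes NOXA, was higher in HEK293 by 2.67, the glutaminase GLS2 by 3.37, and the growth factor KITLG and the checkpoint protein SFN were lower by differences of -5.29 and -6.81. Of the regulators, CDKN2A, which encodes p16 and ARF, was higher by 2.00, and PPP1R13L was lower by a difference of -2.28.

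**Figure D4:**
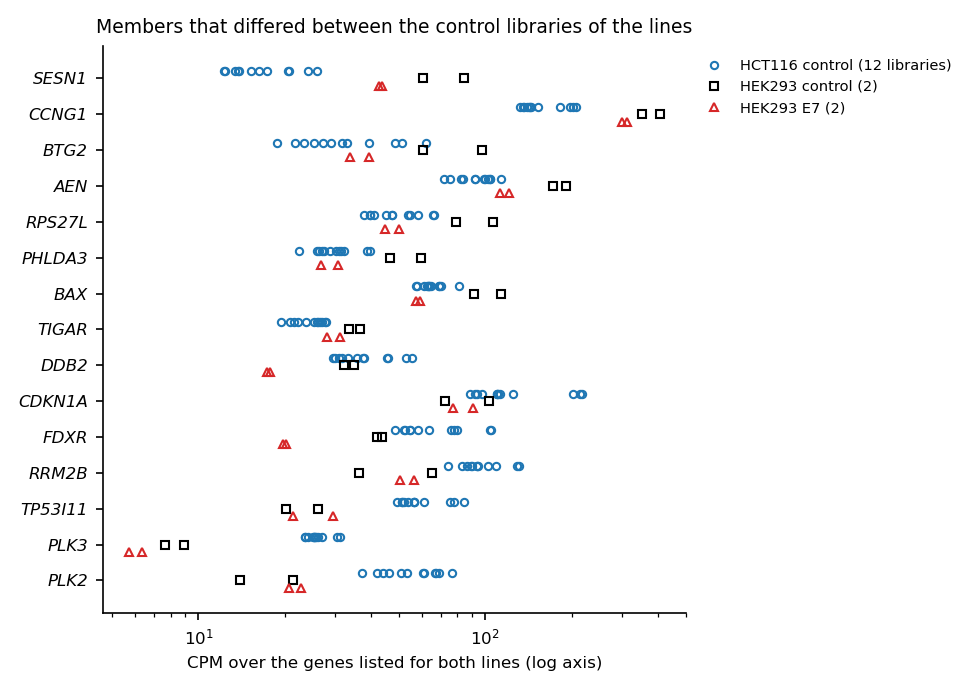
CPM over the genes listed for both lines (log axis) of 15 of the 16 members that differed between the control libraries, 1 symbol per library, for 12 HCT116 control libraries, 2 HEK293 control libraries and 2 HEK293 E7 libraries; EDA2R, at 0 in the HCT116 control libraries, is left out. SESN1 and CCNG1 show the HEK293 control libraries to the right of every HCT116 control library, and PLK2 and PLK3 to the left.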

How the data were processed

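The deposited files hold whole-number read counts per gene, made by the authors from single-end RNA sequencing, 1 library each and not normalized. The submitters' processing notes name HTSeq 0.6.1, TopHat2, bedtools, BWA 0.6.2, Partek 3, bcl2fastq and CASAVA, and hg19 as build. No source used here gives the strand setting, so overlapping and antisense genes cannot be told apart, nor the rule behind the 11887 genes of HEK293. Chromatin samples were not analysed here.

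Every gene was tested by edgeR 4.0.16 in R 4.3.3, with a quasi-likelihood F test (2-sided), TMM scaling and filterByExpr at a minimum count of 10. P-values were adjusted by Benjamini and Hochberg's method across all genes of a comparison. Alternatives were DESeq2 1.42.0, RLE factors, no filter, left-out clones, libraries or days, summed libraries, a replicate block, the day as a block over the 15 libraries (E7) or as a term over days A and B (18qNE), and days B and C alone, the last chosen after seeing the data. In the main tests of E7 in HCT116 and between the lines, counts of days A to C were summed per HCT116 clone. For 18qNE, those of each control clone were summed over days A and B. The 18qNE libraries were single ones of days A, B and A, so the days were not balanced. Each library entered in tests of days and of clones, of 18qE and of E7 in HEK293. P-values measure the spread between these samples. A library left alone in its group was assumed to vary like the others. On simulated data 84 of 100 genes changed by 1 on the log2 scale were recovered for E7 in HCT116 (17203 genes). In that run 23 unchanged genes were called as well. The simulated E7 clone varied like the control clones, so the run cannot show how a lone clone behaves.

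Members that passed are named with values, the rest by range with examples, and of other lists up to 4 passing genes with the largest change. The members and lists were chosen with earlier results of these data known. Some genes of the further lists are not reported here. Promoters and symbols came from RefSeq tables (GRCh38.p14).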

Additional observations from a re-analysis of the deposited data

Results flagged for a closer look

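Of 128 groups of 4 control libraries or clones examined, 7 held a value far from the other 3, a share near the 1 in 20 that chance gives. The clone means reuse the libraries of the single days, so the groups are not independent. CDKN1A was lowest in control clone 4 on day A, at 121 CPM with the other clones at 194 to 209 CPM, and also in the mean of that clone over days, at 106 CPM with the others at 132 to 136 CPM. Control clone 3 held the other 5. On day B it was highest in BAX, at 68.0 CPM against 61.0 to 61.5 CPM, in TRIAP1, at 76.2 CPM against 55.3 to 55.9 CPM, and in GADD45A, at 46.0 CPM against 34.4 to 36.2 CPM. It was lowest in ZMAT3 on day C, at 36.6 CPM against 39.9 to 40.3 CPM, and highest in the mean of BTG2 over days, at 38.2 CPM against 30.8 to 31.9 CPM.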

How the results depend on the processing

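With DESeq2, the number of members called was 11 for E7 in HCT116 (7 with edgeR), 7 for E7 in HEK293, 6 for the difference between the lines, 1 for day C against day B and 1, GDF15, for the day response of E7 (0 each with edgeR). In the same order, DESeq2 called 17.5%, 3.92%, 9.92%, 0.454% and 0.0317% of all genes. Without the filter on low counts it was 3 for day C against day B, 3 for the joint test of clones (1 with the filter), 2 for clone 4 (0), 12 for day D (3) and 3 for the day response of E7 (0). The shares of all genes called were then 0.843%, 6.35%, 3.58%, 6.32% and 0.139%. With the E7 libraries of HEK293 summed, 1 was called, against 0.601% of genes. Leaving out 1 clone, library or day at a time gave 4 to 9 for E7 in HCT116, 1 to 21 for E7 in HEK293, 0 to 15 for the difference between the lines, 15 to 25 for the control clones of the lines (16), 0 to 1 for 18qE and for day C against day B, 0 to 6 for the joint test of clones, 0 to 7 for clone 3 (2), 0 to 3 for clone 4 and 1 to 12 for day D. The lowest counts in E7 in HCT116 came without control clone 1 or 2, and the highest in both tests with HEK293 and in the lines without HEK293 control 1, where 52.5%, 39.7% and 73% of all genes were called. Over 3 18qNE clones, GDF15 ran from -0.98 to 0.0256 and TP53INP1 from -0.62 to 0.0587, above 0 without clone 2, and POLH between the lines ran from -1.13 to 0.1813, above 0 without HEK293 control 2; the cause was not tested. With 1 day left out, 2.08% to 11.7% of all genes were called in the joint test of clones. For clone 3 the range was 2.12% to 12.4%, and for clone 4 1.43% to 8.56%. In all, 92 counts kept within 1.5 times their main value and 32 did not.

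The labels give no pairing of same-numbered libraries beyond the number, and whether they were handled together is not stated. The correlation of their deviations was 0.352 in HEK293 and 0.07 for 18qE, each a single value, and -0.246, -0.23 and 0.096 for 18qNE. With the replicate number as a block, 8 members were called in HEK293, 0 for 18qE and 0 for 18qNE. With 2 libraries a group, or 1 E7 clone, calls rest on few samples, and SPATA18, TNFRSF10C and TRIM22 had few counts per library.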
